A study of Rattus norvegicus with 12 samples.

Results

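Interferon-stimulated genes were followed in dorsal root ganglia, the clusters of sensory neuron cell bodies that flank the spinal cord, taken at level L6 from male Fischer 344 rats. A list of 32 genes was used, of which 29 had at least 1 of the 30367 gene probes on the array and 28 gave enough signal to be tested among 20849 genes. The 3 groups held 4 rats each. Young rats, called young ad libitum, were 6 months old and ate freely. Old rats were 25 to 28 months old and either ate freely (old ad libitum) or had received food only 3 days in each week, starting at the age of 6 weeks (old restricted), which cut their intake by about 40%. The labels name no transgene and no drug, and the study asked how age and lifelong restriction alter inflammation-related expression in these ganglia. The whole ganglion was profiled, so that fewer cells of a type and less RNA per cell cannot be told apart. Of 11 listed sensory neuron marker genes, 10 were among those tested. On 11 arrays and the scale described below, their summed signal was 473670 to 499003 in the young group. It was 461806 to 479637 in the old ad libitum group and 443957 to 467948 in the old restricted group, which lay below every young array.

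Interferons are secreted proteins that cells release when they sense foreign or misplaced nucleic acid. Type I interferons bind a receptor whose kinases activate a complex that holds STAT2 and IRF9 and binds interferon-stimulated response elements in gene promoters. Type II interferon acts through another receptor and through gamma-activated sites. The genes switched on in this way make proteins that block viral entry, translation and replication, together with enzymes that end the response. In ganglia such genes are known to be expressed by neurons, glia and resident immune cells.

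The promoters of these genes are given first. RefSeq promoter windows on the GRCr8 assembly, each 300 bases long with 250 bases before and 50 after the annotated start, were matched for 25 of the 32 genes. The response element core, searched as GAAA and GAAA with any 2 bases between them, or TTTC and TTTC spaced the same way on the other strand, was present in 17 of these 25 windows (68%) and in 3.92% of 33469 windows of the same length. The gamma-activated site TTCNNNGAA, which reads the same on both strands, was present in 9 of 25 windows (36%) and in 8.87% of all windows. The windows printed below are Ifit3 (chr1:241527076-241527375, + strand), Oas1a (chr12:41330216-41330515, + strand), Oas1b (chr12:41395803-41396102, - strand), Irf7 (chr1:205799974-205800273, - strand) and Gbp2 (chr2:234005477-234005776, + strand). Capitals mark every match to either motif. Ifit3, Oas1a, Irf7 and Gbp2 are examples of genes over 2-fold higher on 1 array than on the median of the others. Rsad2, Mx1 and Oasl also passed this fold and had windows, which are not printed. Of these, Rsad2 held a response element core, whereas Mx1 and Oasl held no match to either motif. Oas1b is shown because it holds the same motif letters as Oas1a but kept one level.
Ifit3: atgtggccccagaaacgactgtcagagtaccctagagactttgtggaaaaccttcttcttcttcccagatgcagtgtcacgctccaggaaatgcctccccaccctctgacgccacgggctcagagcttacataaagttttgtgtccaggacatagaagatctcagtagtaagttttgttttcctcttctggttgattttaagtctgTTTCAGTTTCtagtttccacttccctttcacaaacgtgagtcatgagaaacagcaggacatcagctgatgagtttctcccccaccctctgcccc
Oas1a: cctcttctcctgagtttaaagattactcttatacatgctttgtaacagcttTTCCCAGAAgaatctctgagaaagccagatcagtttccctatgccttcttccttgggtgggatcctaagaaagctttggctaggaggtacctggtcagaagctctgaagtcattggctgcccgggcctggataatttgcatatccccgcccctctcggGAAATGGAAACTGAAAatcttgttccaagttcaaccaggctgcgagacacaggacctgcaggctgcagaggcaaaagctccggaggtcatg
Oas1b: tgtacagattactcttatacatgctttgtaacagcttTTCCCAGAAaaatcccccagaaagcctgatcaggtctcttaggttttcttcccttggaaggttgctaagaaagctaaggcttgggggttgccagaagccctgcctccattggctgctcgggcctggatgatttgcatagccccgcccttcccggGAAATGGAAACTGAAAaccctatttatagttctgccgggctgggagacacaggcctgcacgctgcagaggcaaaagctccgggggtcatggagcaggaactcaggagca
Irf7: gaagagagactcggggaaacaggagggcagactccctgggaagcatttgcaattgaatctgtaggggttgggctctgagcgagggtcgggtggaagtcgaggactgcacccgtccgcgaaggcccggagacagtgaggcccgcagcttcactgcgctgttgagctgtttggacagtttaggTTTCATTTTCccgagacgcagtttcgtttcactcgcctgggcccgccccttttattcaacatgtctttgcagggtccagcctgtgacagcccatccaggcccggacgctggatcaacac
Gbp2: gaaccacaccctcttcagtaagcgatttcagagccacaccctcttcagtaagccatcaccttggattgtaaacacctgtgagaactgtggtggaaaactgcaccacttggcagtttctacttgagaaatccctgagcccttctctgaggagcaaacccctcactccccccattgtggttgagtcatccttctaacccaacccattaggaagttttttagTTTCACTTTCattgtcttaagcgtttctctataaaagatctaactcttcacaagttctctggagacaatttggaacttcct
Oas1a and Oas1b each held 2 response element cores that overlap in 1 run, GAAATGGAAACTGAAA, and 1 gamma-activated site, TTCCCAGAA. Ifit3 held TTTCAGTTTC, which began 44 bases before the start, and Irf7 held TTTCATTTTC, which began 69 bases before it. Gbp2 held TTTCACTTTC, which began 31 bases before the start. On the array described below as young array 1, the 16 measured genes with a core were at a median of 1.75 times the other arrays (0.934 to 6.25). The 7 without one were at 1.45 times (1.09 to 3.30). Isg15, Usp18 and Ifit2, at 8.86, 5.58 and 2.75 times, had no window and are in neither set. The motif matches describe letters in a window, and binding was not measured.

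Some arrays stood apart and touch every result. The old ad libitum array 1 had a 75th percentile of signal of 7662, against 2634 to 3110 on the other 11 arrays. It also had 4369 non-uniform spots against 1 to 215, and its median correlation with other arrays was 0.929 against 0.971 to 0.994. Some members were far off there, with Mx2 at 84508, Gbp2 at 5538 and Isg15 at 207 on the scale given below. Results are therefore given on 11 arrays without it, and counts on all 12 beside them. The young array 4 had 342 spots that were dark while a second spot of the same probe was bright, and 119 genes lay over 16-fold below every other array there. Among the 11 arrays kept, old ad libitum array 4 had the lowest median correlation, 0.971, and it had 207 non-uniform spots. It gave the highest of 11 values for 30.5% of all genes. All young arrays were on 1 slide and all old arrays on another, so that slide and age cannot be told apart, and the 2 old groups lay in different rows of their slide. Values are printed as scaled signal, the array signal divided by the array's 75th percentile and multiplied by 1000, which compares arrays for 1 probe but not one probe with another.

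The clearest feature of these genes was the young array 1. It gave the highest of 11 values for 22 of the 28 genes, while it did so for 6.76% of all genes tested. Its signal was over 2-fold above the median of the other 10 arrays for 10 of 28 genes, against 0.590% of all genes, and over 4-fold above it for 3 of 28, against 0.134%. The young array 4 often came second inside its group. The order of young array 1 above young array 4 above both others was found for 22 of 28 genes and for 9.98% of all genes. The lowest value of the 11 arrays fell on young array 2 for 13 of 28 genes, against 10.4% of all genes. It fell on young array 3 for 7, against 8.31%. These shares describe single rats of 1 group, and no test was applied to a single array.

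**Figure D1:**
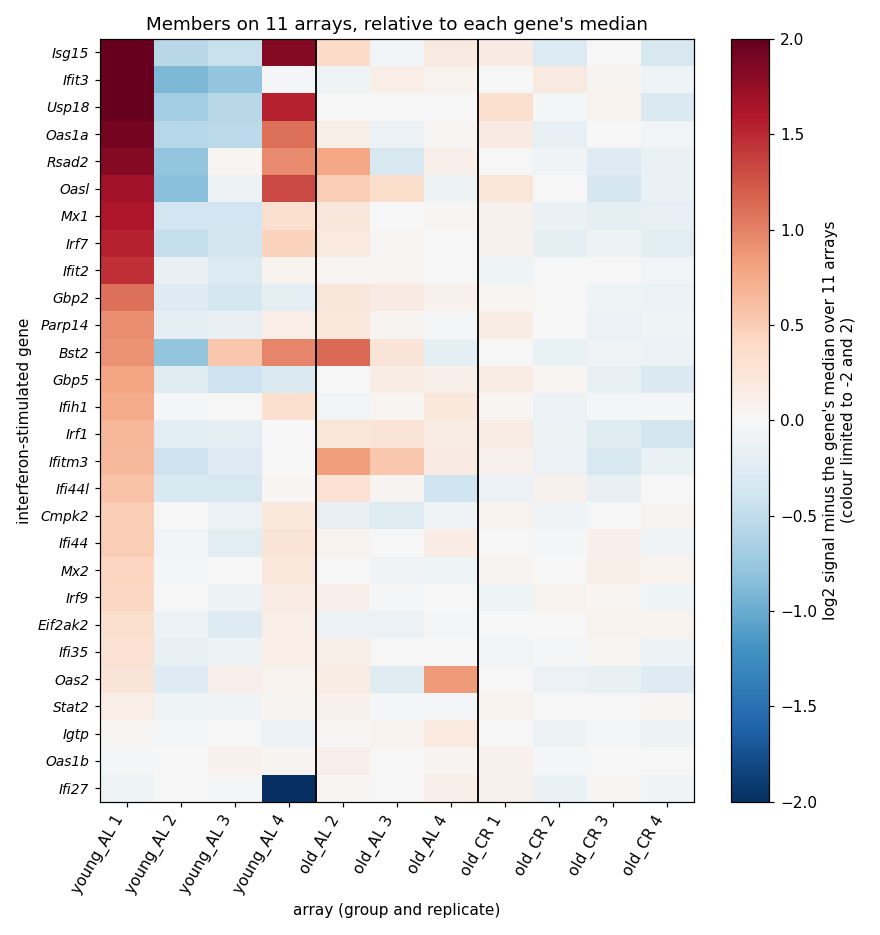
Log2 signal of the 28 genes (rows, ordered by the ratio of young array 1 to the median of the other 10 arrays) on 11 arrays (columns), minus each gene's median over the 11 arrays, with colour limited to -2 and 2. The young array 1 column is highest in 22 of 28 rows, and the dark cell for Ifi27 on young array 4 comes from 1 dark spot of 2.

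Isg15 and the enzyme that reverses its action, Usp18, stood among the 3 genes furthest above the other arrays. Isg15 is a ubiquitin-like protein that is attached to other proteins during an interferon response. Its scaled signal on young arrays 1 to 4 was 4178, 325, 353 and 1704, on old ad libitum arrays 2 to 4 it was 623, 464 and 545, and on old restricted arrays 1 to 4 it was 534, 399, 479 and 383. The young group thus held both the highest and the lowest values, and all 7 old arrays lay between them. The young array 1 was 8.86-fold above the median of the other 10 arrays. Usp18 removes Isg15 from its targets and also dampens the type I interferon receptor. Its scaled signal was 541, 60.8, 65.7 and 280.3 on the young arrays, 96.7, 97.4 and 97.0 on the old ad libitum arrays, and 121, 94.1, 102 and 79.4 on the old restricted arrays. A second Usp18 probe showed the same order on the young array 1, at 258 against 31.7 to 144 on the other 10 arrays. For both genes the old arrays lay inside the range of the young group.

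The effectors that act on viral RNA showed the same shape. Ifit3 and Ifit2 bind foreign RNA and hold back its translation. Ifit3 read 156, 13.5, 14.6 and 24.7 in the young group, 23.6, 27.4 and 26.4 in the old ad libitum group, and 25.1, 28.3, 25.9 and 23.6 in the old restricted group. Only the young array 1 stood far above the old arrays, at 6.25 times the median of the other 10, while young arrays 2 and 3 lay below every old array. Ifit2 read 265, 87.0, 80.4 and 102 in the young group and 91.6 to 99.8 over the 7 old arrays. Ifit1 was not well above background on any array, and no difference is given for it.

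The 2',5'-oligoadenylate synthetases, which sense double-stranded RNA and activate a ribonuclease, split into different patterns. Oas1a read 410.1, 73.0, 74.7 and 231 in the young group, 118, 100.3 and 110.2 in the old ad libitum group, and 121, 96.3, 108 and 104 in the old restricted group. Both young arrays 1 and 4 were above all old arrays, and young arrays 2 and 3 below all of them. Oas1b, whose promoter letters at the response element are those of Oas1a, read 22455, 22780, 24289 and 23573 in the young group, 24435, 22756 and 23585 in the old ad libitum group, and 24301, 22370, 22770 and 22731 in the old restricted group. Its groups overlapped throughout, and young array 1 was at 0.969 times the median of the others. Oasl, a related protein, read 34.6, 6.04, 10.1 and 27.1 in the young group and 8.56 to 15.2 in the old arrays. Oas2 was dim, and its highest of 11 values, 25.1, fell on old ad libitum array 4. Whether the Oas1a and Oas1b probes also bind other copies of this gene family was not tested.

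**Figure D2:**
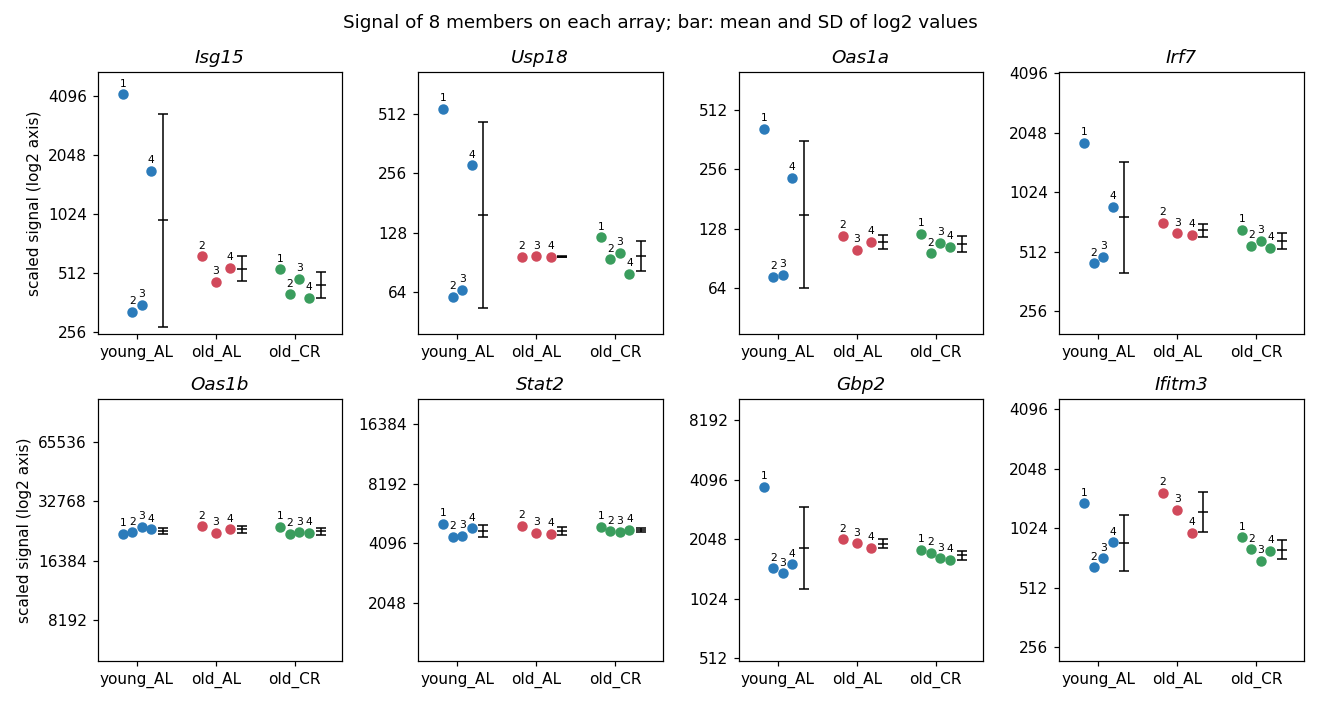
Scaled signal (log2 axis) of 8 genes in the 3 groups, with each point an array labelled by its replicate number, and the bar the mean and SD of the log2 values, over 4 young, 3 old ad libitum and 4 old restricted arrays. Isg15, Usp18, Oas1a and Irf7 are spread widely in the young group, with Isg15 from 325 to 4178, whereas Oas1b and Stat2 stay within a narrow range on all arrays.

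Mx1, a GTPase that traps viral particles, read 5150, 1290, 1284 and 2102 in the young group and 1459 to 1955 over the old arrays. The related Mx2 read 30618, 22301, 22492 and 26161 in the young group, and its old arrays ran from 21302 to 24451. Young array 1 was the highest of 11 arrays for both, by 3.21-fold over the median of the others for Mx1 and 1.36-fold for Mx2. Rsad2 (viperin), which makes a chain-ending nucleotide, read 2932, 473, 843 and 1578 in the young group, 1395, 654 and 878 in the old ad libitum group, and 685 to 819 in the old restricted group. Cmpk2, a nucleotide kinase that supplies the substrate of Rsad2, varied less, with 2304, 1631, 1511 and 1889 in the young group, 1452, 1376 and 1559 in the old ad libitum group, and 1705, 1558, 1648 and 1686 in the old restricted group.

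Transcription factors of the pathway differed among themselves. Irf7 drives the later wave of interferon production and read 1822, 447, 482 and 861 in the young group, 715, 634 and 625 in the old ad libitum group, and 662, 546, 582 and 534 in the old restricted group. The old arrays again lay between young arrays 1 and 4 on one side and 2 and 3 on the other. Irf1, which responds to type II interferon, read 1956, 1068, 1080 and 1236 in the young group, 1465, 1478 and 1368 in the old ad libitum group, and 1376, 1151, 1047 and 955 in the old restricted group. A dimmer second Irf1 probe read 65.3 on young array 1, but its highest value, 81.5, fell on old ad libitum array 4. Irf9 and Stat2, partners in the complex that type I interferon activates, differed less between arrays. The young array 1 was at 1.34 times the median of the other 10 arrays for Irf9, and at 1.09 times for Stat2, whose 11 values ran from 4433 to 5138.

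The interferon-inducible GTPases help cells destroy vacuoles that hold pathogens. Gbp2 read 3760, 1456, 1373 and 1530 in the young group, 2042, 1947 and 1846 in the old ad libitum group, and 1802, 1747, 1640 and 1615 in the old restricted group. Apart from young array 1, every young array lay below every old array. Gbp5, which also promotes inflammasome assembly, read 403, 197, 175 and 191 in the young group, 232, 258 and 249 in the old ad libitum group, and 258, 239.6, 210.0 and 189.8 in the old restricted group. The 2 probes of Igtp disagreed. The brighter one ran from 47434 to 58758 with young array 1 at 1.03 times the median of the others, while the dimmer one read 299 on young array 1 against 101 to 182 on the other 10 arrays.

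Some of the remaining members were also higher on young array 1, by less. Parp14, an ADP-ribosyltransferase, was at 1.92 times the median of the other arrays on young array 1, Ifih1, a cytosolic sensor of double-stranded RNA, at 1.69 times, and Ifi44l at 1.54 times. Ifi44, Eif2ak2 (the kinase PKR, which halts translation) and Ifi35 lay between 1.25 and 1.41 times. Bst2 (tetherin), which holds budding virions at the cell surface, read 822, 257, 646 and 873 in the young group, with its highest value of 971 on old ad libitum array 2, so that young array 4 and not young array 1 led its group. Ifi27 was bright and level, with young array 1 at 61670 and the 7 old arrays from 59803 to 70384. Its value of 312 on young array 4 is the mean on the log2 scale of a spot at 66751 and a spot at 1.45 that no outlier flag had marked. Rigi, Herc6 and Xaf1 had no matched probe and are not analysed here.

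The spread inside each group was larger among the young rats. The median SD of log2 signal over the 28 genes was 0.497 in the young group (n = 4), 0.0876 in the old ad libitum group (n = 3) and 0.101 in the old restricted group (n = 4). Over all genes the same medians were 0.0878, 0.106 and 0.0759. A larger SD in the young than in the old restricted group was found for 27 of 28 members and for 57.0% of all genes. Against the old ad libitum group it was 25 of 28 and 40.9%. Without young array 1 the median SD of the members in the young group was 0.198, against 0.0786 for all genes. Oas1b was the member with a smaller SD in the young group than in the old restricted group, at 0.0509 and 0.0529.

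**Figure D3:**
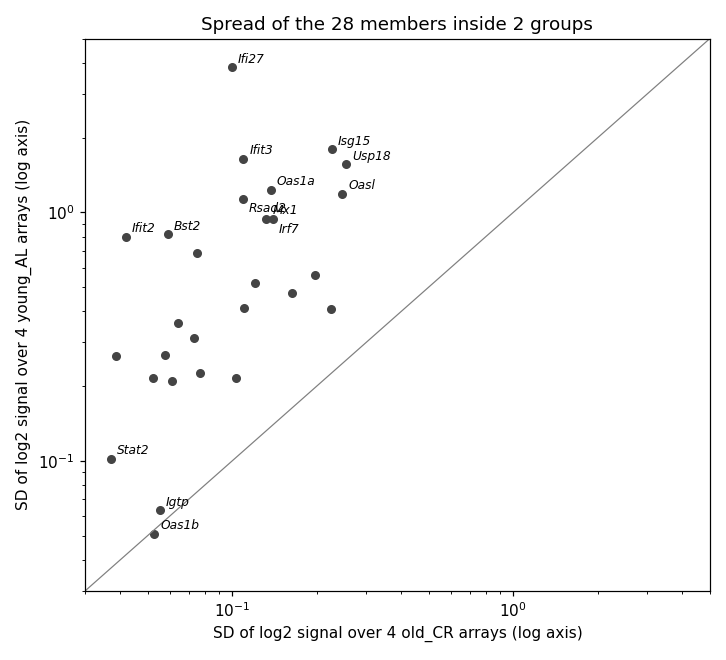
SD of log2 signal over the 4 young arrays (vertical, log axis) against the SD over the 4 old restricted arrays (horizontal, log axis), with 1 point a gene and the line of equal SD drawn. Of the 28 points, 27 lie above the line, and Oas1b lies just below it.

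Other genes moved with these on the young array 1. Among 29 further interferon-stimulated genes, 4 were over 2-fold above the median of the other 10 arrays, namely Cxcl10 at 8.31-fold, Oas1k at 4.12-fold, Rtp4 at 2.28-fold and Irgm at 2.22-fold. Dhx58, a helicase related to the RNA sensors, was the one of 12 nucleic acid sensing genes to do so, at 3.33-fold. None of 7 receptor and kinase genes and none of 11 genes that restrain the response passed this fold. In the macrophage, neutrophil, T cell, cytotoxic cell, B cell, plasmacytoid dendritic, endothelial, satellite glia, Schwann cell, sensory neuron and erythroid lists, 0 genes passed it. The summed scaled signal of 16 macrophage genes was 12800 on young array 1, inside the range of 9752 to 13221 over the young group.

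Genes that sensory neurons raise after injury to their axons were also high on young array 1. Of 13 such genes, in a list chosen after these values were seen, 8 were over 2-fold above the median of the other 10 arrays. The neuropeptide galanin (Gal) read 10771 there against 469 to 1069 on the other arrays, Vip 1199 against 13 to 97.7, and the injury transcription factor Atf3 3729 against 681 to 1721. Young array 4, second for many interferon-stimulated genes, showed none of this, with Gal at 469, Vip at 13 and Atf3 at 921. The part of these genes in the interferon pattern was not tested.

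**Figure D4:**
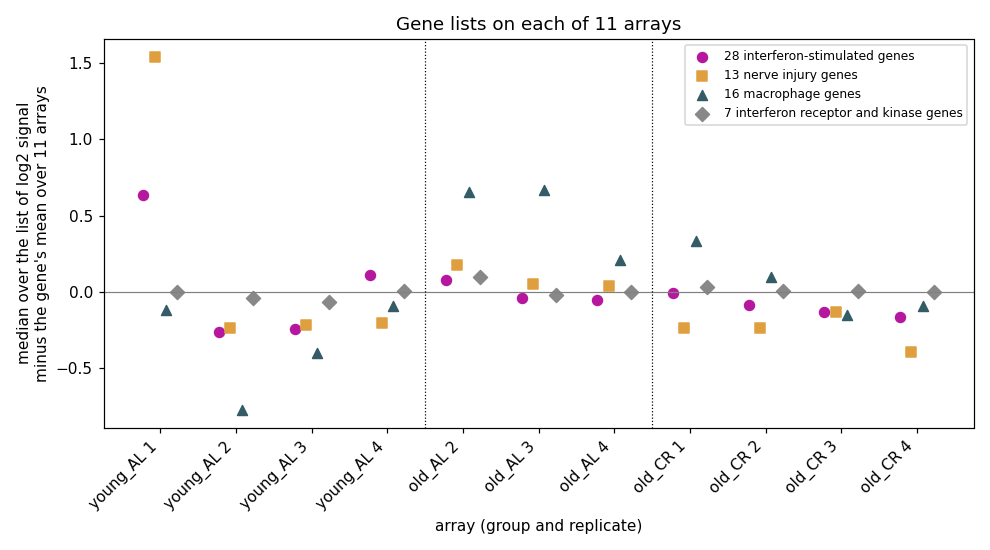
Median over each gene list (28 interferon-stimulated, 13 nerve injury, 16 macrophage, 7 interferon receptor and kinase genes) of log2 signal minus the gene's mean over 11 arrays, shown for each array. Young array 1 is at 0.64 for the interferon-stimulated genes and 1.54 for the injury genes, while the macrophage genes are highest on old ad libitum arrays 2 and 3.

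Old and young ad libitum ganglia were compared first, for the effect of age. On 11 arrays 0 of 28 members passed an adjusted p of 0.05 in limma with Benjamini-Hochberg adjustment over all genes, against 3.24% of all genes called, and 2 of 28 had an unadjusted p under 0.05 against 23.1% of all genes. On all 12 arrays 0 of 28 passed against 0.0191%, and 1 had an unadjusted p under 0.05 against 6.71%. The median log2 difference of the members was -0.094, against 0.035 for all genes, with 19 of 28 below 0. It lay above 0 without young array 1, at 0.13, and with the replicate number as a block, at 0.029, where 8 of 28 members changed sign. Groups did not overlap for 1 member that was higher with age, Igtp, against 11.9% of all genes, and for 0 that were lower, against 7.64%. The p-values set each group difference against the spread between rats inside the groups. The difference itself also holds slide, which cannot be told apart from age. The summed scaled signal of the 16 macrophage genes ran from 9752 to 13221 over the young arrays and from 15212 to 19975 over the old ad libitum ones. The sums also did not overlap for 10 T cell genes (394 to 526 and 715 to 774), 7 cytotoxic cell genes (930.1 to 1132 and 1530 to 7853) and 5 plasmacytoid dendritic genes (2251 to 2445 and 2739 to 3007), again higher in the old group. On 11 arrays 5 of 16 macrophage, 2 of 6 neutrophil, 1 of 10 T cell, 1 of 5 plasmacytoid dendritic and 0 of 7 cytotoxic cell genes rose with age in limma, 3 of 10 sensory neuron genes fell, and on 12 arrays 0 of each list passed. The part of these cells in the members' differences was not tested.

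The members with the smallest p in this comparison were Cmpk2 and Igtp. Cmpk2 was lower in old ganglia by a log2 difference of -0.31 ± 0.12 (SE; n = 3 and 4, limma adjusted p = 0.183). Igtp was higher by 0.13 ± 0.053 (adjusted p = 0.19 in limma), a direction that turned with median centring of the arrays. Ifitm3, a membrane protein that blocks viral fusion, read 1364, 648, 721 and 866 in the young group, 1540, 1263 and 966 in the old ad libitum group, and 919.9, 800.0, 698 and 788 in the old restricted group. Its old minus young difference was 0.52 ± 0.25 (adjusted p = 0.244 in limma), with overlap through young array 1. Isg15 differed by -0.82 ± 0.79 and Usp18 by -0.69 ± 0.68, so that the standard errors were nearly as large as the differences. The difference of 2.0 ± 1.7 for Ifi27 rests on the dark spot, since it was 0.078 without young array 4.

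Most members lay above 0 when young array 1 was left out, and 13 of 28 changed sign. Without it 22 of 28 members were higher in old ad libitum ganglia, with a median log2 difference of 0.13 against 0.032 for all genes. Gbp2 then passed the test at 0.42 ± 0.063 (SE; limma adjusted p = 0.0278 on 10 arrays), 1 of 28 against 1.89% of all genes, and 7 of 28 had an unadjusted p under 0.05 against 22.4%. With young array 1 the difference of Gbp2 was 0.077 ± 0.30 (adjusted p = 0.892 in limma). Groups did not overlap for 5 members that were higher, against 15.4% of all genes.

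The old restricted and old ad libitum ganglia were compared for the effect of diet. On 11 arrays 0 of 28 members passed in limma, against 1.06% of all genes, and 2 had an unadjusted p under 0.05 against 26.4% of all genes. On 12 arrays 0 passed against 0.00478%, and 1 had an unadjusted p under 0.05 against 5.96%. Without young array 1, 0 of 28 passed against 0.564%, with 4 at an unadjusted p under 0.05 against 26%. The members' median log2 difference was -0.085 with 23 of 28 below 0, beside a median of -0.054 for all genes. Both medians turned above 0 with all 12 arrays, quantile normalization, median centring or another background correction. Groups did not overlap for 3 members that were lower under restriction, Igtp, Ifitm3 and Gbp2, against 15.3% of all genes. Eif2ak2 was the 1 member higher without overlap, against 8.23%, but its second probe had the opposite sign.

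Igtp had the smallest p, with a log2 difference of -0.16 ± 0.053 (SE; n = 4 and 3, limma adjusted p = 0.117), and its sign turned with median centring. Ifitm3 was lower by -0.63 ± 0.25 (adjusted p = 0.154 in limma), Irf1 by -0.36 ± 0.20 and Oas2 by -0.38 ± 0.22. None of these passed the test, and the Oas2 difference was -0.082 without old ad libitum array 4. In a fit of the old arrays alone, which share 1 slide, the smallest adjusted p among the members was 0.139 in limma. The macrophage list moved the same way, with summed scaled signals of 15212 to 19975 over the old ad libitum arrays and 11966 to 15423 over the old restricted ones. Cytotoxic cell genes stood at 7853 on old ad libitum array 2 against 856 to 1549 on the other 10 arrays. For that list, all old restricted arrays lay below all old ad libitum ones. The same was found for the plasmacytoid dendritic, B cell, satellite glia and erythroid lists. Erythroid sums were 230690 to 250181 under restriction and 273974 to 401622 with free feeding. Sums of 29 further interferon-stimulated genes also did not overlap, at 19303 to 22403 under restriction and 22714 to 24388 with free feeding. The part of the cells behind these lists in the differences was not tested.

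The old restricted ganglia were also set against the young ones. On 11 arrays 0 of 28 members passed in limma against 2.41% of all genes, and 0 had an unadjusted p under 0.05 against 18.3%. On 12 arrays 0 of 28 passed against 0.0191%, with 0 at an unadjusted p under 0.05 against 2.72%. Without young array 1, 0 of 28 passed against 0.719%, with 3 at an unadjusted p under 0.05 against 15.9%. The median log2 difference was -0.15, against -0.017 for all genes, with 25 of 28 below 0, and it was close to 0 without young array 1, with 14 on each side. Ifih1 had the smallest p, with a difference of -0.30 ± 0.15 (SE; n = 4 and 4, limma adjusted p = 0.355). Groups overlapped for all 28 members, where 5.56% of all genes were higher and 10.2% lower without overlap. In limma on 11 arrays, 2 of 10 sensory neuron, 2 of 7 satellite glia and 1 of 7 Schwann cell genes were lower. Of 16 macrophage genes 3 were higher, as was 1 of 6 neutrophil genes, and on 12 arrays 0 of each list passed. The part of these cells in the members' differences from the young group was not tested. All 3 comparisons share groups and are not independent.

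**Figure D5:**
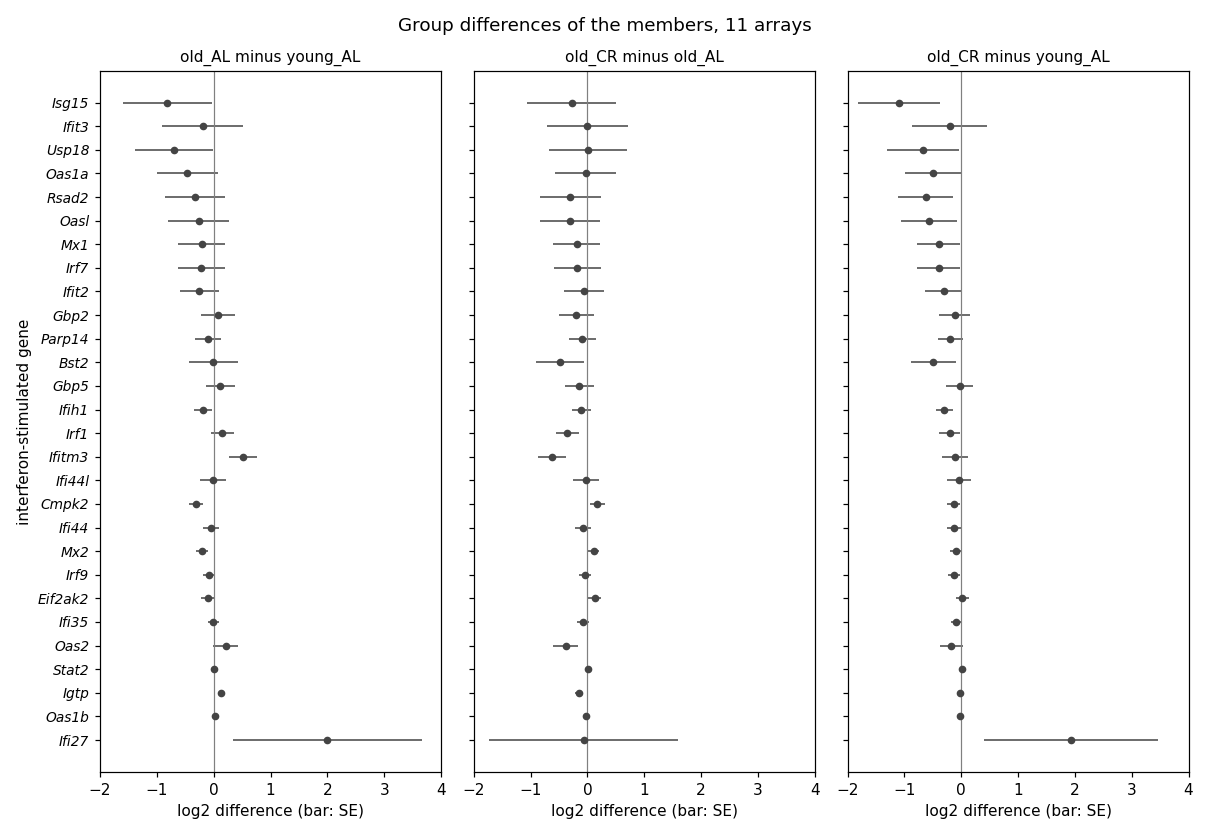
Log2 difference of each of the 28 genes in the 3 comparisons on 11 arrays (point) with its standard error (bar), ordered as in the map of all members. The widest bars belong to Ifi27, whose differences from the young group are near 2, and to genes that varied most among young rats, and no gene passed the adjusted threshold.

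Upstream and neighbouring parts of the pathway gave 2 calls. Of 29 further interferon-stimulated genes tested, 2 rose with age on 11 arrays and 0 fell, against 3.24% of all genes called, while on 12 arrays 0 of 30 passed against 0.0191%. Ifitm2, a close relative of Ifitm3, read 3127, 2827, 3172 and 3121 in the young group, 4112, 4356 and 4099 in the old ad libitum group, and 3709, 3337, 2804 and 2950 in the old restricted group. Every old ad libitum array was above every other array. It rose with age by 0.45 ± 0.090 (SE; limma adjusted p = 0.0367), but leaving out 1 array kept the call in 2 of 11 cases, with adjusted p-values of 0.0295 to 0.0869. The difference between restricted and ad libitum old ganglia was -0.40 ± 0.090 for Ifitm2 (adjusted p = 0.061 in limma).

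Apobec3, a cytidine deaminase that mutates retroviral DNA, was dim, with 10.8 to 13.2 over the young arrays and 14.1 to 15.1 over the old ad libitum ones. Its rise of 0.33 ± 0.073 (adjusted p = 0.0485 in limma) was called in 1 of 11 cases with 1 array left out, and its sign turned with quantile normalization. Without young array 1 neither of these genes passed, and Psmb9, a catalytic subunit of the immunoproteasome, and Cxcl9, a chemokine induced by type II interferon, were called in their place. Psmb9 was then higher with age by 0.65 ± 0.13 (adjusted p = 0.0488 in limma) and Cxcl9 by 0.95 ± 0.19 (adjusted p = 0.0475 in limma). On 11 arrays their differences were 0.51 and 0.73, with adjusted p-values of 0.123 and 0.133 in limma.

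Among interferon genes themselves, probes for Ifna4 and Ifna5 alone passed the filter, and neither passed the test in any comparison on 11 arrays. Of 7 receptor and kinase genes, 12 nucleic acid sensing genes and 11 genes that restrain the response, 0 passed in any of the 3 comparisons on 11 or 12 arrays. Sting1, the adaptor of cytosolic DNA sensing, read 344 to 445 in the young group, 554 to 626 in the old ad libitum group and 349 to 510.4 in the old restricted group. Its log2 difference was 0.53 ± 0.14 with age (adjusted p = 0.0678 in limma) and -0.52 ± 0.14 with restriction (adjusted p = 0.0764 in limma). Neither passed, although the age difference did so without old restricted array 1 and both did so after another background correction.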

How the data were processed

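RNA from L6 dorsal root ganglia of 12 rats was hybridised to one-colour Agilent arrays. Per the file headers, intensity was read with Agilent Feature Extraction 10.7, and the deposited processed signal intensity of each spot, already background-corrected by the authors' software, was the starting value. The authors' series table held the same values. Any further normalization is not given in the sources used here.

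Control spots (4259) and spots flagged as outliers were left out. Log2 intensity minus that of each array's 75th percentile was taken, the log2 values of a probe's spots were averaged, and probes well above background in at least 0.5 of their spots on at least 4 arrays were kept. Each gene was read from its brightest probe. Of 30367 gene probes, 17998 were named through RefSeq accessions and 12369 were not. R 4.3.3 and limma 3.58.1 (lmFit, eBayes) gave the group differences, and p-values were adjusted over all genes by Benjamini-Hochberg with a threshold of 0.05. The fits were tested on simulated data. The number of arrays limits the precision.

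The old ad libitum array 1 was left out of the first fit. The genes and lists were chosen with earlier results of these data known. The members to be described were those among the 8 smallest p in a comparison. Some of them, such as Ifih1 and Irf9, are not given array by array. Other members (Ifit2, Ifit3, Oas1a, Oas1b, Mx1, Gbp2, Gbp5, Irf7, Stat2) were chosen after their values were seen. The alternatives were all 12 arrays, quantile normalization, median centring, normexp background correction (offset 50), other filters and probe rules, array weights, a replicate block, each array left out, and, added after seeing the data, a rule for dark spots. Same-numbered arrays did not deviate together.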

Additional observations from a re-analysis of the deposited data

Results flagged for a closer look

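In the groups of 4 arrays, 56 sets of values of the 28 genes were checked for an array far from the other 3, and 3 were found, where chance flags about 1 in 20. For Gbp2, the young array 1 read a scaled signal of 3760, while the other young arrays ran from 1373 to 1530. For Gbp5, the young array 1 read 403, while the others ran from 175 to 197. For Ifi27, the young array 4 read 312, while the others ran from 61670 to 66340, and 1 of its 2 spots was dark. The 2 spots of Gbp2 on young array 1 read 3608 and 3919, and the 10 spots of Gbp5 ran from 375 to 429. Isg15, Usp18 and Oas1a, whose young array 4 was also high, did not have a single array that far from the rest.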

How the results depend on the processing

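Over 23 alternatives and the 3 comparisons, 1929 differences of the tested members were recomputed and 151 changed sign. Many of the 1929 could not change, so that this share is no measure of stability. The series table held the same values. Fitting only the 2 groups compared, or leaving out an array of the third group, left the members' differences as they were. Between the old groups 15 of 28 changed sign on all 12 arrays, 13 with median centring, 10 with quantile normalization and 9 with normexp correction. With age 13 of 28 did so without young array 1 and 8 with the replicate block. Among the genes named in the text, mostly those with the smallest p, 14 of 689 recomputed differences changed sign, with the same limit. The count of members called in old against young ad libitum ganglia was 0 except with median centring, where it was 2 (Cmpk2 at -0.47 and Mx2 at -0.36), and with single arrays left out, where it ranged from 0 to 1. Median centring shifted the median of all genes by -0.16 in that comparison and by 0.17 between the old groups. Over all genes, the 676 calls with age became 4 on all 12 arrays, 3404 with median centring and 20 with the replicate block. The members' median for restricted against ad libitum old ganglia, -0.085, became 0.078 on all 12 arrays, 0.026 with quantile normalization, 0.086 with median centring and 0.00385 with normexp correction. In the same order, the median of all genes, -0.054, became 0.042, 0.047, 0.116 and 0.034. The members' median stayed below that of all genes except on all 12 arrays and without the signal filter. Without that filter the members' median was -0.093 and that of all genes -0.121. With the replicate block the members' median was -0.31. In that fit replicate 1 held only young array 1 and old restricted array 1, and the replicate number was also the column on the slide. The cause was not tested. With that block 0 members were called, and same-numbered arrays had correlations of -0.0883 to 0.0863 in their deviations. Signs turned on 12 arrays for Mx2 with age (0.28), Mx2 with restriction (-0.38) and Bst2 with restriction (0.051), with quantile normalization for Oas2 with restriction (0.15) and Apobec3 with age (-0.31), with normexp for Oas2 (0.061), with median centring for Igtp (-0.031 with age, 0.014 with restriction) and Gbp2 (-0.083), and with the mean of probes for Eif2ak2 (-0.071). With dark spots left out Ifi27 was at -0.00533 for restricted against young. Gbp2 with age ranged from -0.064 to 0.42 as single arrays were left out, with its highest value and only call without young array 1. The members' median with age ranged from -0.19 to 0.13 over the same fits. Young array 1 was the highest array for 19 to 23 of the 28 genes, with 19 on all 12 arrays. Slide and age cannot be told apart. The number of rats limits the precision.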
